A study of Mus musculus with 2 samples.

Results

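The cytoplasmic ribosomal protein genes are the 94 of 55357 genes in the deposited gene list whose symbols follow the Rpl, Rps, Rplp or Rpsa pattern, without pseudogene rows marked by a ps suffix and without the Rps6k kinases. They comprised 46 proteins of the large subunit and 31 of the small subunit, 9 paralogues, 7 gene copies that carry a ribosomal protein name, and Rps19bp1. The last encodes a protein that binds Rps19 and is not itself part of the ribosome, so the label does not hold for it. The symbol pattern also missed ribosome components under other names, such as Fau and Rack1, which are described separately.

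Each member was read in T cells of mouse ileum, sequenced as 1 droplet library labelled Control and 1 labelled SAP, an abbreviation the labels do not spell out. The study's design describes dendritic cells loaded with phages from healthy or from SAP mice, cultured with gut T cells of GF mice and tagged enzymatically on contact by FucoID, which transfers a fucose-biotin label onto touching cells. The labels do not say which phages the Control library's dendritic cells received, whether the sequenced cells were the tagged fraction, how many mice were pooled, or their strain, age or genotype. Both libraries shared the tissue, the cell type label and the 3' chemistry.

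With 1 library per group nothing separates the treatment from the library. No test was run for that reason, and every interval given here covers counting error only.

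Ribosomal proteins assemble with ribosomal RNA into the large subunit, which forms peptide bonds, and the small subunit, which decodes the mRNA. Their mRNAs are among the most abundant in any cell, and many begin with a run of pyrimidines, the TOP motif, through which mTOR signalling and the protein LARP1 set how far they are translated and stored. Most subunits are encoded by 1 expressed gene surrounded by many silent copies, but a few have expressed paralogues, such as Rpl22l1 beside Rpl22, whose protein is needed for normal alpha-beta T cell development, or Rpl39l and Rpl10l, which are known from the testis.

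The 5' ends of 5 members are shown because they carry, or lack, the pyrimidine run for which these mRNAs are known. Each line gives 15 bases before and 15 bases from the RefSeq start in GRCm38.p6, read 5' to 3' on the gene's strand, with the run in capitals.

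Rps27, chr3:90213634-90213663, minus strand: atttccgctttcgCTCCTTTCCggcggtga

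Rps27rt, chr9:114982725-114982754, minus strand: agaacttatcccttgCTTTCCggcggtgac

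Rps24, chr14:24490663-24490692, plus strand: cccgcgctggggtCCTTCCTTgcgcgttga

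Rpl38, chr11:114668565-114668594, plus strand: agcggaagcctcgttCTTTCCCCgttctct

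Rpsa, chr9:120127751-120127780, plus strand: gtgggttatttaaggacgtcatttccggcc

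A run was counted when at least 5 C or T bases in a row, the first of them a C, began within 3 bases of the start on the gene's strand. Of the 77 subunit genes, 57 had a start in the RefSeq table, and 23 of these (40.4%) held such a run. The share among all 27025 genes with a start was 13.5%. It was 66.7% (4 of 6) for the small nucleolar RNA host transcripts, which belong to the same TOP class, and 13.0% (9 of 69) for the proteins of the mitochondrial ribosome. Rpsa, which encodes a small subunit protein, had none in its window, and a missing run says only that these letters do not lie there.

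The coding sequences of Rpl39 (chrX:37082520-37085402, minus strand) and Rpl39l (chr16:10170226-10174911, plus strand) are shown because a small set of cells used the pair unlike the other T cells. They come from GENCODE M21 in the same build, without the stop codon, and the capitals mark the bases that differ.

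Rpl39: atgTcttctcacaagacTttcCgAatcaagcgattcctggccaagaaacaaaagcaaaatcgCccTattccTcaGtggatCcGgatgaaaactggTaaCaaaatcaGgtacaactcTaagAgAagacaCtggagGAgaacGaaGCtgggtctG

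Rpl39l: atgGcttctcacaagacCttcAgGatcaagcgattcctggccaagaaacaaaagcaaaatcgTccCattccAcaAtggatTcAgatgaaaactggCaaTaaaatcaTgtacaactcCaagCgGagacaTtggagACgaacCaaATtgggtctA

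Both run to 153 bases and differ at 23 of them (85.0% identity), and the end of the Rpl39l transcript shared no 50-base window with any other gene. Its UMIs could therefore be told apart from those of Rpl39. By contrast, the coding sequence of Rps27rt (chr9:114982366-114982739, minus strand) equalled that of Rps27 at all 252 bases, and 88.4% of the 50-base windows in its last 300 bases also occurred in other transcripts. Rps27l, the more distant paralogue, differed from Rps27 at 60 bases (76.2% identity).

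Shared ends were common in the family. Of the 77 subunit genes, 62 shared at least 1 such window with a transcript of another gene, and in 49 of them at least 50% of the windows were shared. How reads that match several genes were assigned is not given in the sources used here, so levels of single members are uncertain. Every window was shared in Rpl10, Rpl21, Rpl36a, Rps12, Rps27, Rpl6l and Rps12l1, so the values of these genes given below, and the pair shares of Rpl10l, Rpl36al, Rps27l and Rps27rt, carry this limit in full.

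The Control library held 5737 barcodes with 19142384 UMIs, and the SAP library 5203 barcodes with 19144320 UMIs. After filtering, 5345 and 4749 cells carried at least 1 UMI of a T cell receptor or CD3 gene and are called T cells here, with median depths of 3118 and 3399 UMIs. The 8 T cell markers summed to 7493 and 7065 UMIs per 1000000 UMIs (CPM) in them. Markers of epithelial cells summed to 147 and 238 CPM, of myeloid and dendritic cells to 196 and 180.0 CPM, and of B and plasma cells to 907 and 102 CPM. Only 6 barcodes occurred in both libraries.

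A small set of cells stood apart inside the T cell gate. Those with a UMI of Folr1, a folate receptor gene, numbered 31 in Control and 77 in SAP and held 506368 and 1422689 UMIs, with a deepest cell of 67595 and 72303 UMIs. In them T cell markers summed to 966 and 912 CPM, against 7686 and 7601 CPM in the other T cells, and epithelial markers to 1779 and 1664 CPM, mostly Krt18, with 5 and 2 of the 8 markers at 0. B and plasma cell markers summed there to 12025 CPM in Control, mostly Igkc, and to 5.62 CPM in SAP. The library results below are therefore given with and without these cells.

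Ribosomal protein genes were a large part of the T cells' UMIs. Their share was 23.4% in Control (4144268 of 17676113 UMIs) and 22.1% in SAP (3926261 of 17746493 UMIs). Single cells ranged widely around it, from 0.391% to 61.0% in Control and from 0% to 59.8% in SAP, and the middle 50% of cells ran from 16.5% to 26.6% and from 14.4% to 25.6%. The summed UMIs of the 46 large subunit genes exceeded those of the 31 small subunit genes by a near-constant factor. It was 1.17 in both libraries and 1.16 to 1.18 in every gate, and it compares sums over unequal numbers of genes, not levels per gene.

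Levels spread over a wide scale even among subunits. CPM from 3' tags count molecules and are not divided by length. By the mean of the libraries the highest member was Rps27 (8372 CPM in Control, 7258 in SAP), before Rps29 (8526 and 6800) and Rps24 (6737 and 6224). Rplp1 (5940 and 6012), Rps15a (6299 and 5538) and Rpl37a (6228 and 5288) completed the 6 highest. The lowest subunit gene was Rpl13a, at 564 and 533 CPM. A typical T cell had at least 1 UMI of 78 members.

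The rarest members were all paralogues or copies. Rps12l1 had 0 UMIs in Control and 2 in SAP, Rps23rg1 4 and 3, Rpl3l, the paralogue of heart and skeletal muscle, 6 and 13, Rps3a2 14 and 14, Rps4l 59 and 44, and Rpl10l 72 and 248. These 6 were too low for ratios between the libraries.

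**Figure D1:**
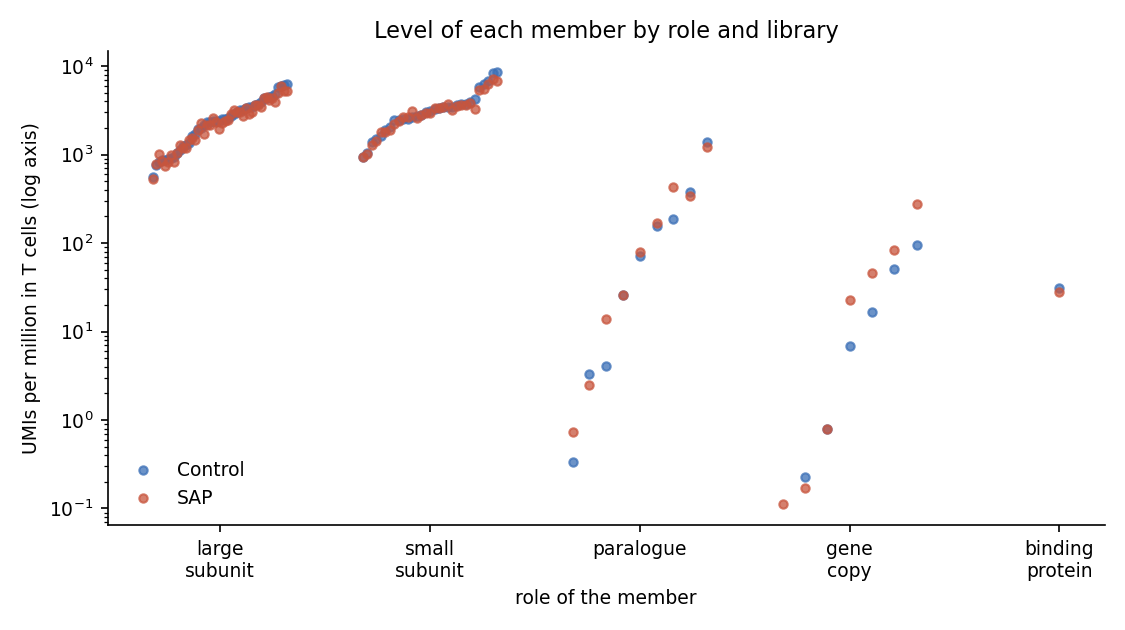
CPM in T cells (log axis) of each member, ordered by its Control level within its role, in Control (blue) and SAP (red). Subunit genes lie between 533 and 8526, while paralogues and copies spread down to single UMIs; Rps12l1 has no Control point because its count there was 0.

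The share differed between gates. T cells were split by UMIs of Cd8b1 (the CD8 beta chain of conventional CD8 T cells), Cd8a without Cd8b1 (the pattern of CD8 alpha-alpha cells of the gut lining), Trdc (the constant region of the delta chain of gamma-delta T cells) and Cd4, each without the genes that define the other gates, with Cd8a allowed beside Cd8b1 and Trdc. A gate rests on single UMIs, so a cell can miss its gate through shallow sequencing.

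The order of the gates was the same in both libraries. The Cd4 gate had the highest share, 30.2% of UMIs in Control (185 cells) and 28.3% in SAP (167 cells). The Cd8b1 gate followed with 27.1% (544 cells) and 26.5% (539 cells). The Trdc gate held 22.1% (2231 cells) and 20.9% (2029 cells), and the Cd8a gate 21.8% (1455 cells) and 20.6% (1202 cells). Cells without any of the 4 genes stood at 26.2% (798 cells) and 23.3% (686 cells). Counting intervals were narrow, for example 30.1% to 30.3% for the Cd4 gate of Control, yet cells within a gate varied far more. The middle 50% of Cd4 gate cells ran from 22.9% to 34.4% in Control, and of Cd8a gate cells from 15.6% to 24.9%, so the gates overlapped.

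Against the Cd8b1 gate, the share in the Cd8a gate was 0.806 times as high in Control and 0.777 times in SAP, a mean log2 ratio of -0.34 with an SD of 0.037 over the 2 libraries. For the Trdc gate the ratios were 0.816 and 0.788 (mean log2 -0.32, SD 0.036). For the Cd4 gate they were 1.12 and 1.07 (mean log2 0.13, SD 0.045). These SDs span libraries with different labels and are no replicate error. The Cd8a and Trdc ratios lay below 1 and the Cd4 ratio above 1 in both libraries. Median depth differed little between the 4 gates, from 3124 to 3375 UMIs in Control and from 3450 to 3614 in SAP.

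In the Cd4 gate of Control, B and plasma cell markers summed to 11380 CPM, against 50.5 CPM in SAP. In that gate 1 Control cell, of 15898 UMIs, carried at least 10 UMIs of these markers and had a ribosomal protein share of 13.2%. Without it the Control share of the gate was 30.6%.

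**Figure D2:**
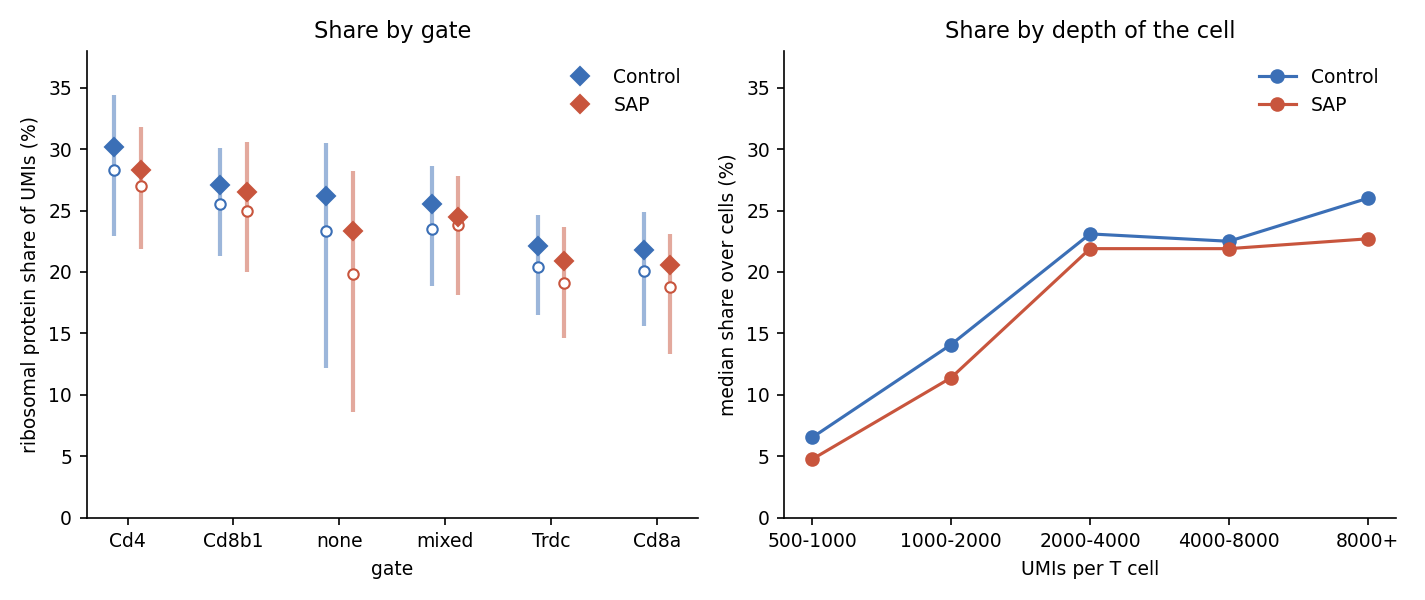
Left, ribosomal protein share of UMIs (%) by gate, with the share of summed UMIs (diamonds), the median cell (open circles) and the middle 50% of cells (bars), in Control (blue) and SAP (red). Right, the median share over T cells by UMIs per cell. The Cd4 and Cd8b1 gates sit above the Trdc and Cd8a gates in both libraries, and the median share goes from 6.54% and 4.77% in the shallowest cells to 23.1% and 21.9% at 2000 to 4000 UMIs.

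The share also moved with depth and mitochondrial content. T cells of 500 to 1000 UMIs had a median share of 6.54% in Control (461 cells) and 4.77% in SAP (443 cells), with median mitochondrial shares of 4.39% and 5.63%. At 2000 to 4000 UMIs the medians were 23.1% and 21.9%, with mitochondrial shares of 1.14% and 1.49%. Across cells the share correlated with the UMI count (Spearman rho 0.43 in Control, 5345 cells; 0.48 in SAP, 4749 cells) and inversely with the mitochondrial share (-0.31 and -0.40). Both terms of each correlation contain the cell's UMI total, so they are descriptions only.

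At matched depth the Cd4 and Cd8b1 gates again stood above the others. In cells of 2000 to 4000 UMIs the median share in Control was 30.6% in the Cd4 gate, 26.0% in Cd8b1, 22.2% in Cd8a and 21.3% in Trdc, and in SAP 27.6%, 26.1% and 20.4% in the first 3 of them, with Trdc lowest again. In both libraries the Cd8a and Trdc gates thus stood in the other order than over all cells, and no order between them is given. After thinning every cell to 1000 UMIs and drawing the gates anew, the shares of the 4 gates were 27.4%, 25.6%, 20.4% and 20.5% in Control and 25.8%, 24.4%, 19.2% and 19.7% in SAP. Thinning left out 507 and 502 shallower cells.

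The lower share in the Cd8a gate was spread over most members. Of the 86 members abundant enough in both libraries (at least 20 CPM in 1 of the compared sums and 50 UMIs over both), 58 were at least 1.2-fold lower than in the Cd8b1 gate in both libraries, against 7.60% of all 5462 genes compared. Another 3 members were at least 1.2-fold higher (20.4% of all genes), Rpl39l, Rps3a3 and Rpl37rt, and 0 were without the Folr1 cells. In Control, Rps3a3 reached 20 CPM only in the Cd8a gate (101 CPM, against 17.1 in Cd8b1). The median log2 ratio of the members was -0.34, that of all genes 0.10. By subunit, 33 of 46 large and 23 of 31 small subunit genes were lower by 1.2-fold. In cells of 2000 to 4000 UMIs alone the number of lower members was 34, and the share of all genes was not counted in them.

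Summed markers of other cell types were also higher in the Cd8a and Trdc gates, but few genes made up the sums. In either gate 2 of 8 epithelial, 2 of 8 B and plasma cell and 2 of 10 myeloid markers were abundant enough in both libraries. The epithelial pair was Epcam and Krt18, and the myeloid and dendritic pair Cst3 and Itgax. Whether other cell types were present in these gates was not tested. Epithelial markers summed to 36.3 CPM in the Cd8b1 gate of Control and 45.8 CPM in that of SAP, to 169 and 239 CPM in the Cd8a gate and to 148 and 205 CPM in the Trdc gate. B and plasma cell markers summed to 66.2 and 67.1 CPM in Cd8b1, 122 and 121 CPM in Cd8a and 921 and 103 CPM in Trdc. Myeloid and dendritic markers summed to 118 and 133 CPM, 222 and 203 CPM, and 227 and 199.9 CPM in the 3 gates. Without the Folr1 cells 57 members were lower in the Cd8a gate and 52 in the Trdc gate, and without cells of at least 10 B and plasma cell UMIs 58 and 53. The shares of all genes lower in these subsets of cells were not counted.

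Rpsa was the lowest member. In Control it had 3224 CPM in the Cd8b1 gate and 2122 CPM in the Cd8a gate, a log2 ratio of -0.60, and in SAP 3415 and 2074 CPM, a log2 ratio of -0.72. Rplp0, which builds the stalk that recruits elongation factors, followed with -0.53 and -0.64, and Rps19, the gene mutated most often in Diamond-Blackfan anaemia, with -0.50 and -0.60. Rpl39 was at -0.49 and -0.57, Rps2 at -0.48 and -0.55 and Rps24 at -0.44 and -0.56. At the other end stood Rpl10, a protein that joins the large subunit late in the cytoplasm, at 0.03 and 0.12, and Rpl31 at 0.07 and -0.01. The family was therefore lower as a group in this gate, but by amounts that differed between members.

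The Trdc gate gave a like picture. Here 53 of 86 members were at least 1.2-fold lower in both libraries (6.61% of all 5399 genes). A single member, Rps3a3, was higher (19.7% of all genes), or 0 without the Folr1 cells. In Control, Rps3a3 reached 20 CPM only in the Trdc gate (53.7 CPM, against 17.1 in Cd8b1). All 46 large and all 31 small subunit genes had a mean ratio below 0, with a median of -0.31 over the members and 0.10 over all genes. Rpsa was again lowest, at -0.58 in Control and -0.69 in SAP, before Rplp0 at -0.54 and -0.60. Rps13 was at -0.43 and -0.45, Rpl31 at -0.01 and -0.03 and Rpl10 at -0.02 and -0.06. Rps19bp1, the binding protein, went the other way, at 0.20 and 0.54, on few UMIs (549 and 503 over all T cells). The Cd8a and Trdc gates were set against the same Cd8b1 cells, so these values are given side by side without a comparison of the lists.

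In the Cd4 gate 8 of 85 members were at least 1.2-fold higher than in the Cd8b1 gate in both libraries (11.2% of all 4867 genes) and 0 were lower (16.5% of all genes). The share of members called higher was near that of all genes, but their median lay above it, at 0.13 against -0.05. The 8 were Rpl7, Rpl24, Rpl29, Rplp0, Rps19, Rpsa and the paralogues Rpl7l1 and Rps27l. Rpsa had log2 ratios of 0.52 in Control and 0.31 in SAP, Rps19 0.47 and 0.27, and Rpl24, a protein at the interface of the subunits, 0.33 and 0.49. Rpl7l1, a paralogue known from ribosome assembly, reached 0.61 and 0.56 but on few UMIs, 24 and 26 in this gate. Rpl38 (-0.02 and -0.02) and Rpl14 (-0.02 and -0.09) were among the lowest subunit genes. With cells thinned to 1000 UMIs, 1 member was called higher and 1 lower, and with gates of at least 2 UMIs 3 were higher. The share of all genes was not counted under either setting.

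**Figure D3:**
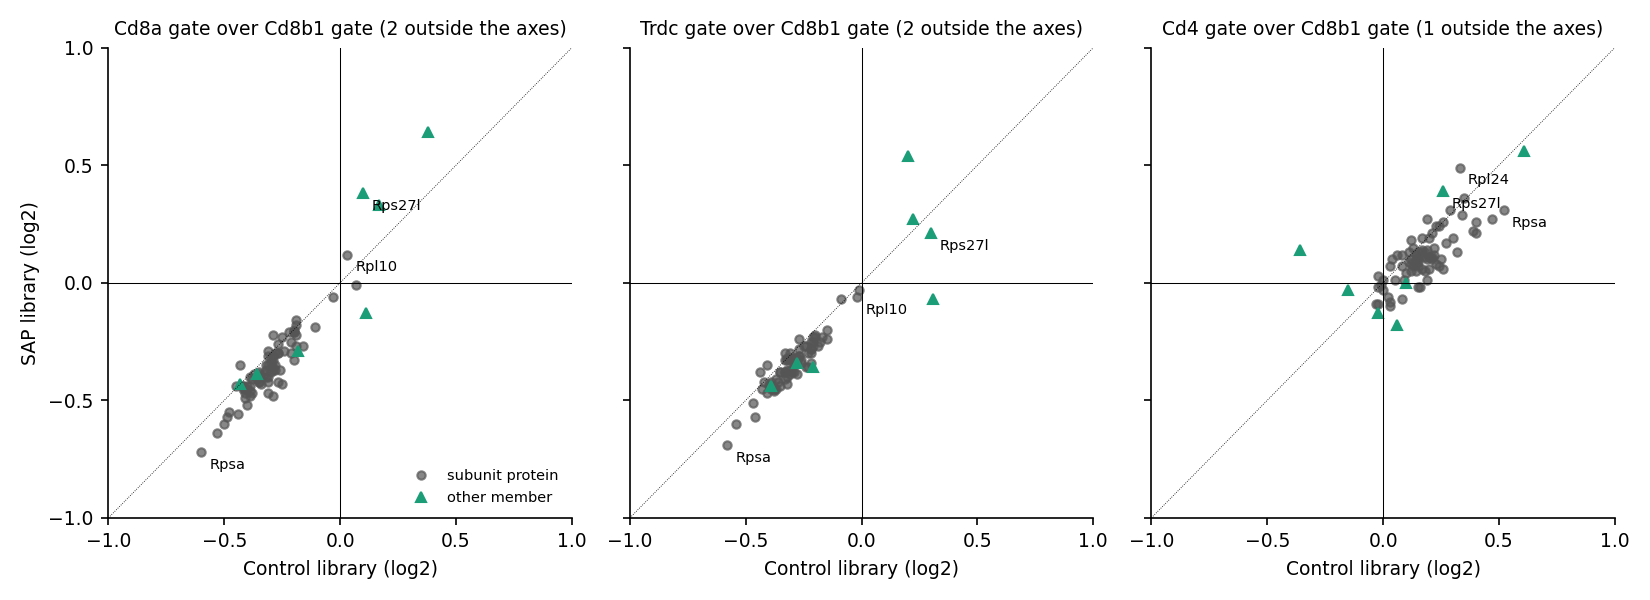
Log2 ratio of CPM in each gate over the Cd8b1 gate, Control library on the x axis and SAP library on the y axis, 1 point per member with enough UMIs (grey circles subunit proteins, green triangles other members; the dotted line marks equality). Subunit genes lie below 0 in both libraries in the Cd8a and Trdc gates except Rpl10 and Rpl31 in the Cd8a gate, with Rpsa lowest, and mostly above 0 in the Cd4 gate; members beyond 1 in either library are counted in each title.

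Genes that mark T cell states also divided the cells. With every cell thinned to 1000 UMIs, cells with a UMI of Tcf7, a transcription factor of naive and memory-like T cells, had a median share of 30.8% in Control (226 cells) and 30.6% in SAP (198 cells). Cells without one had 21.9% and 20.5%. Cells with a UMI of Gzmb, the cytotoxic protease granzyme B, had 20.9% (3735 cells) and 19.5% (3140 cells), and those without 29.8% (1109 cells) and 28.1% (1099 cells). The direction was the same in both libraries for both genes.

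Xcl1, a chemokine gene, went with a higher share, at 27.4% with and 21.8% without a UMI in Control and 26.5% and 20.3% in SAP. Ifng, which encodes interferon gamma, divided the cells little, with 23.2% against 22.0% and 22.2% against 20.7%. Tnfrsf9, a costimulatory receptor induced by activation, had 20.6% with and 22.3% without in Control. The proliferation gene Mki67 was found in 55 and 29 cells, with medians of 21.7% and 15.9%, against 22.2% and 20.8% in cells without it.

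Between the libraries the share was slightly lower in SAP. The ratio was 0.944 (0.942 to 0.945, the exact 95% interval for counting error) over all T cells, and 0.979 (0.975 to 0.982) in the Cd8b1 gate, 0.944 in Cd8a, 0.945 in Trdc and 0.936 in Cd4. Of the 5 depth classes, the median share was lower in SAP in each, but in Cd8b1 gate cells of 2000 to 4000 UMIs it was 26.0% in Control and 26.1% in SAP. Median mitochondrial share over T cells was 1.19% in Control and 1.48% in SAP, and it cannot be told apart from the treatment. Whether the difference exceeds that between replicate libraries was not measured.

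Single members mostly stayed within 1.2-fold. Of 88 members abundant enough, 5 were at least 1.2-fold lower in SAP (2.53% of all 5701 genes) and 6 were higher (12.8% of all genes). Among the 6, Rpl32l (6.85 CPM in Control, 23.0 in SAP) and Rpl6l (16.6 and 46.4) reached 20 CPM only in SAP. These calls were therefore let in by the library in which the genes are high. The median log2 ratio was -0.05 over the members and 0.04 over all genes, with 58 members below 0 and 30 above. These counts depend on scaling. TMM factors lower every SAP over Control log2 ratio, so that the median over all genes moves from 0.04 to -0.06. With them 21 members were lower and 5 higher, and with median-of-ratios factors 15 and 5. The shares of all genes past 1.2-fold under these factors were not counted, so these numbers show no excess among the members.

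Rps28, a small subunit protein near the mRNA exit, had 4219 CPM in the Control and 3319 CPM in the SAP T cells, and the ratio was 0.787 (0.778 to 0.795). Rpl38, known for its role in translating patterning genes in the embryo, was at 4912 and 3898 CPM (0.794), and Rps29, a zinc-binding protein of the small subunit, at 8526 and 6800 CPM (0.798). Rpl35 stood at 2147 and 1720 CPM (0.801) and Rpl27a at 2416 and 1951 CPM (0.808), and Rpl36, the next, at 3443 and 2885 CPM (0.838). The first 5 were each below 0 on the log2 scale in all 4 gates, which come from the same 2 libraries. Without the Folr1 cells only Rps28 (0.814) and Rpl38 (0.829) stayed past 1.2-fold (1.43% of all 5473 genes), while Rps29 (0.836), Rpl35 (0.837) and Rpl27a (0.839) lay just short of it.

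Rpl5 was the only subunit gene at least 1.2-fold higher in SAP. It binds the 5S ribosomal RNA and, when not built into ribosomes, the p53 regulator Mdm2. It went from 836 CPM (Control) to 1020 CPM (SAP), with a ratio of 1.22 (1.19 to 1.25) and log2 ratios of 0.27 to 0.32 in the 4 gates. Without the Folr1 cells the ratio was 1.22, and Rpl5 was then the only member called higher (6.98% of all genes). Its log2 ratio fell short of 1.2-fold with TMM factors (0.18), with median-of-ratios factors (0.20) and with cells thinned to 1000 UMIs (0.25). Rpl11, its partner in the same complex, was at 2735 and 2877 CPM, a ratio of 1.05.

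The other 5 higher members were Rpl32l (ratio 3.37), Rps3a3 (2.94), Rpl6l (2.79), Rpl39l (2.31) and Rpl37rt (1.62). GENCODE M21 lists Rpl32l (chr10:20208490-20208888), Rps3a3 (chr13:108670603-108671397) and Rpl6l (chr10:111125851-111126721) as processed pseudogenes, copies without introns, and Rpl37rt (chr5:115102923-115110268) as a transcribed one. A large part of their UMIs lay in the Folr1 cells, 88.4% in Control and 96.3% in SAP for Rpl32l, 87.1% and 96.3% for Rps3a3, 69.4% and 87.5% for Rpl6l, 91.9% and 97.4% for Rpl39l, and 28.6% and 52.9% for Rpl37rt.

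Without those cells the differences between the libraries were small or turned. Rpl39l then had 15.6 (Control) and 12.4 CPM (SAP), a factor of 0.797, and Rps3a3 had 12.5 and 11.1 CPM (0.885). Rpl6l was at 5.24 and 6.31 CPM (interval of the ratio 0.898 to 1.62), Rpl32l at 0.815 and 0.919 CPM, and Rpl37rt at 37.6 and 42.5 CPM (1.13). The higher levels in SAP thus accompanied the larger number of Folr1 cells, 77 against 31.

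Within the Folr1 cells levels were of the same order in both libraries. Rpl39l reached 6007 (Control) and 5244 CPM (SAP) and exceeded Rpl39, at 1647 and 1320 CPM, whereas in the other T cells Rpl39 had 5977 and 5236 CPM. Rps3a3 stood at 2873 and 3337 CPM, Rpl6l at 403 and 506 CPM, and Rpl10l at 103 and 167 CPM. Subunit genes were unevenly represented too: Rps3 had 8988 and 9194 CPM there against 2497 and 2545 CPM in the other T cells, Rpl8 6720 and 7208 against 2256 and 2204, and Rpl10 5986 and 6200 against 1896 and 1956. Their total share was lower, 19.2% and 18.8% against 23.6% and 22.4%. Rps3 and Rpl10, with ratios between the libraries of 1.15 and 1.14 over all T cells, were at 1.02 and 1.03 without these cells.

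**Figure D4:**
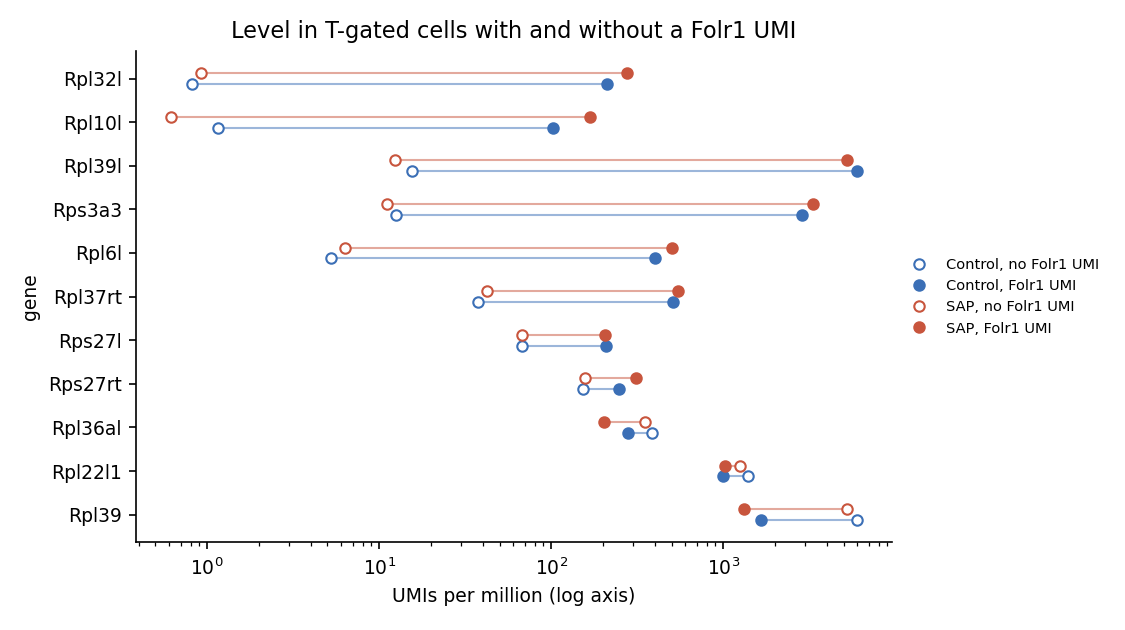
CPM (log axis) of 11 genes in T-gated cells with a Folr1 UMI (filled; 31 Control and 77 SAP cells) and without (open), Control in blue and SAP in red. Rpl39l, Rps3a3, Rpl6l, Rpl10l, Rpl32l and Rpl37rt are higher in the Folr1 cells of both libraries, while Rpl39, Rpl22l1 and Rpl36al are lower.

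Coding length went with the difference between the libraries. Across the 77 subunit genes the Spearman correlation of coding length with the SAP over Control log2 ratio was 0.50, and it was 0.53 in the Cd8b1 gate, 0.50 in Cd8a, 0.50 in Trdc, 0.48 in Cd4 and 0.55 without the Folr1 cells. Genes are not independent replicates and all points come from the same 2 libraries, so no p is given. The 19 shortest genes (138 to 369 coding bases) had a median log2 ratio of -0.21 with 17 below 0, and the 19 longest (624 to 1257) a median of -0.00 with 10 below and 9 above.

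Other protein-coding genes showed this less. Over 5205 of them the correlation was 0.16, and the 312 as short as the shortest members had a median log2 ratio of -0.04, with 186 below 0. Median mitochondrial share also differed between the libraries (1.19% and 1.48%), and its part in this relation was not tested.

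**Figure D5:**
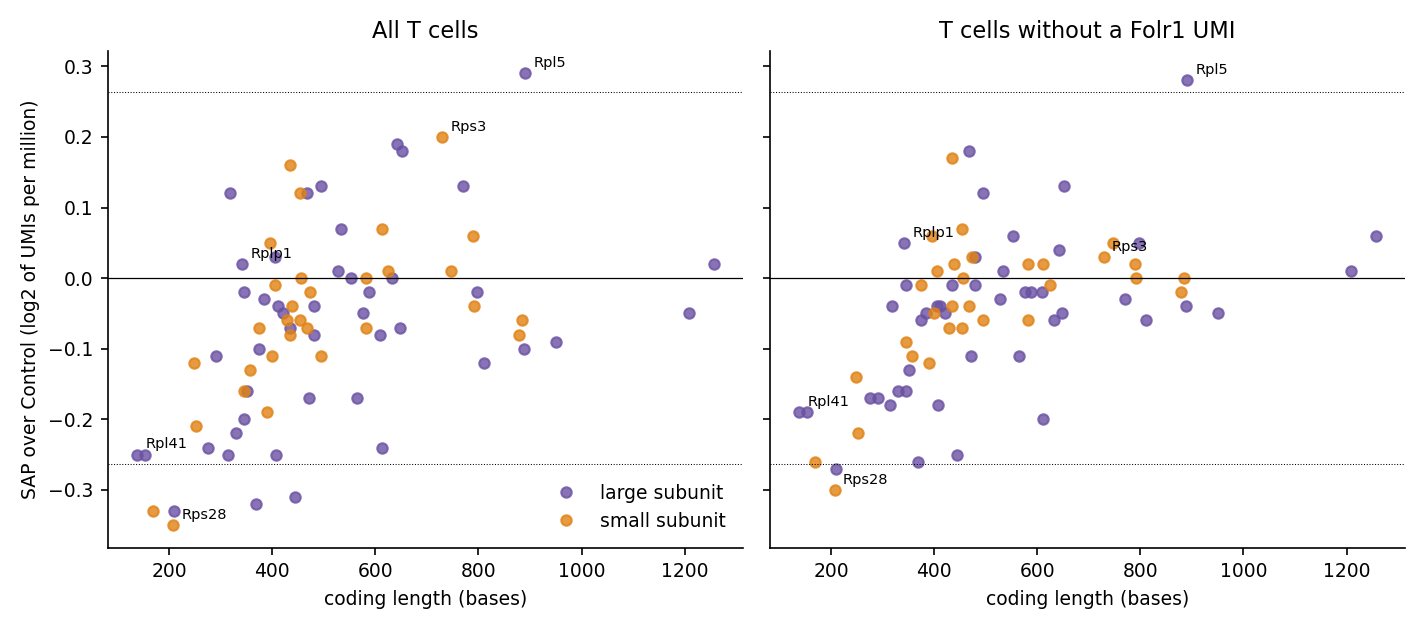
SAP over Control log2 ratio of CPM against coding length (bases) for the 77 subunit genes (large subunit purple, small subunit orange), over all T cells and over those without a Folr1 UMI; dotted lines mark 1.2-fold. Shorter genes tend to lie lower in both panels (Spearman 0.50 and 0.55), with exceptions such as Rpl36a and Rplp1, short genes at 0.12 and 0.02 over all T cells, and Rpl5 lies above the upper line.

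Among the expressed pairs, Rpl22l1 was used most. It supplied 41.8% of the UMIs of Rpl22 and Rpl22l1 together in Control (24524 of the pair's UMIs; exact 95% interval 41.4 to 42.2) and 39.4% in SAP (21862 UMIs; 39.0 to 39.9). A UMI of Rpl22l1 was present in 84.4% and 82.7% of T cells. Rpl22l1 had 1387 CPM in Control and 1232 in SAP, and Rpl22 1931 and 1891. In Rpl22l1, 63.3% of the windows at the transcript end also occurred in transcripts of other genes, and in Rpl22 23.9%. The percentages of this pair, here and by gate, therefore carry the limit of unknown read assignment in part.

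The share was lowest in the Cd4 gate, at 37.2% (35.4 to 39.0) and 35.5% (33.6 to 37.5), against 41.0% and 41.1% in the Cd8b1 gate. The difference was -3.83 percentage points in Control and -5.64 in SAP. The intervals of the 2 gates did not overlap within either library, but they cover counting error and leave out the spread between cells. The Cd8a gate had 42.5% and 40.7% and the Trdc gate 42.1% and 39.1%. In the Cd8b1 gate the libraries differed by less than their counting intervals; whether the gates differ in this was not tested. With cells thinned to 1000 UMIs the Cd4 gate differed from the Cd8b1 gate by -4.39 and -1.04 points.

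Rpl36al, the paralogue of X-linked Rpl36a, supplied 21.9% of the pair's UMIs in Control and 18.7% in SAP. Without the Folr1 cells, in which Rpl36a was 3952 and 4178 CPM against 1279 and 1242 in the others, the shares were 23.1% and 22.0%. The difference between the libraries was then smaller.

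The remaining paralogues were minor. Rpl7l1 held 1.98% and 2.14% of its pair, Rps27rt 1.82% and 2.26%, Rps27l, which is induced by p53, 0.848% and 1.08%, and Rps4l 0.130% and 0.0930%. Relative to Rps27, Rps27l was lowest in the Cd8b1 gate (0.617% and 0.710%). It was at 0.962% and 1.06% in the Trdc gate, 0.854% and 1.22% in Cd8a, and 0.739% and 0.924% in Cd4. Without the Folr1 cells the Trdc gate had 0.928% and 0.998%, against 0.617% and 0.682% in Cd8b1. Rps27 itself was lower in the Trdc than in the Cd8b1 gate (log2 -0.35 and -0.38), which raises this percentage. Rpl39l supplied 3.10% and 8.07% of its pair over all T cells but 0.260% and 0.237% without the Folr1 cells, and Rpl10l 0.202% and 0.605% against 0.0614% and 0.0313%. Across 4 gates and 2 libraries without the Folr1 cells, Rpl39l stayed between 0.149% and 0.332%.

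Companion genes of the translation machinery were counted from fixed lists. Their counts stand against 12.8% of all genes higher and 2.53% lower in SAP, 20.4% and 7.60% in the Cd8a gate, 19.7% and 6.61% in the Trdc gate, and 11.2% and 16.5% in the Cd4 gate. Of the ribosome components outside the symbol pattern, Fau was at 6734 CPM (Control) and 5951 CPM (SAP), a log2 ratio of -0.18, and Rack1 at 1358 and 1581 CPM, a log2 ratio of 0.22.

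The 7 small nucleolar RNA host transcripts, non-coding RNAs of the TOP class, had 0 calls between the libraries (median -0.12), and 3 of 7 were lower in the Cd8a gate (median -0.39) and 3 of 7 in the Trdc gate (median -0.27). Gas5, the most abundant of them, was at -0.30 and -0.48 in the Cd8a gate. In the Cd4 gate their median was -0.21, with 1 of 7 lower, on the other side of 0 from the members' median of 0.13.

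Translation factors differed less. Of 6 elongation factors 1 was lower in the Cd8a gate (median -0.10) and 1 in the Trdc gate (median -0.13); Eef1b2 was at -0.31 and -0.34 in the Cd8a gate and Eef1a1 at -0.14 and -0.15. Of 20 initiation factors and TOP mRNA partners 3 were lower and 1 higher in the Cd8a gate (median -0.08), and 2 lower in the Trdc gate (median -0.15). Between the libraries 1 of 6 and 2 of 20 were higher.

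The ribosome biogenesis genes, which act in the nucleolus, had 2 of 18 lower in the Cd8a gate (median -0.07), 3 of 17 in the Trdc gate (median -0.10) and 2 of 16 in the Cd4 gate (median 0.02), and 2 of 18 higher in SAP (median 0.05). Proteins of the mitochondrial ribosome had 7 of 53 lower and 4 higher in the Cd8a gate (median -0.03), 5 lower and 3 higher in the Trdc gate (median -0.04), and 9 of 56 higher in SAP with 0 lower (median 0.09), a share of higher genes near that of all genes. For the list of mTOR signalling and translational control, 3 of 11 were higher in the Cd8a gate and 5 of 11 in the Trdc gate, with 0 lower in either (medians 0.19 and 0.16), the first near the share of all genes, and 2 of 12 were higher in SAP (median 0.05). The cytoplasmic ribosomal proteins' medians of -0.34 and -0.31 in the Cd8a and Trdc gates lay below those of the elongation, initiation, biogenesis, mitochondrial ribosome and mTOR lists in the same gates, while the host transcripts were lower in the Cd8a gate (-0.39).

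Dissociation and stress genes, which cell handling induces, had 1 of 10 higher and 0 lower in SAP (median 0.05). In the Cd8a gate 2 of 9 were lower (median -0.26), in the Trdc gate 0 of 9 were called (median 0.05), and in the Cd4 gate 3 of 9 were lower and 1 higher (median -0.29). Their part in the gate differences was not tested.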

How the data were processed

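The authors deposited raw UMI counts per gene and barcode for each library; the file headers name Cell Ranger 7.1.0. Seurat and mm10 appear in the submitters' processing notes without a stated role. Annotation version, barcode filters and the handling of reads that match several genes: not given in the sources used here.

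Barcodes were kept with at least 500 UMIs, 300 genes and at most 10% mitochondrial UMIs. Scrublet (scanpy 1.11.5) marked 1 Control and 0 SAP barcodes by its automatic threshold, so the top scores were removed up to 0.8% per 1000 barcodes, 257 (4.54%) and 202 (4.02%), which left 5408 and 4826 cells. T cells had at least 1 UMI of Cd3d, Cd3e, Cd3g, Trac, Trbc1, Trbc2 or Trdc. UMIs were summed per library and gate and scaled to CPM.

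Ratios carry exact conditional binomial 95% intervals and shares Clopper-Pearson intervals; both cover counting error only. With 1 library per group no p-value was computed, and 1.2-fold describes size. Intervals were checked on simulated counts for SAP against Control over 55357 genes, with 200 abundant genes changed by known folds. They covered 95.5% of the true ratios of the changed genes, and for 1.2-fold changes 92.0% excluded 1 on the right side. Of unchanged genes of like abundance, 0.228% passed 1.2-fold. The simulated counts vary by counting error only, so they say nothing of differences between replicate libraries. Scaling factors came from edgeR 4.0.16 (TMM) and DESeq2 1.42.0 (median of ratios), with no test from either. All 94 members were found in GENCODE M21 by identifier.

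The members, gene lists and tests were chosen with earlier results of these data known. Named genes were every paralogue with a UMI, the 6 members of highest and of lowest level, the 6 highest and 6 lowest by library ratio, up to 6 at each end of each gate ratio on the same side in both libraries, and list genes that a count refers to; Rpl11, Rps3, Rpl8, Rpl31 and members called by count only were added after their values were seen. Leaving out cells with a Folr1 UMI, cells of 2000 to 4000 UMIs alone, and leaving out cells with 10 or more B and plasma cell UMIs were also chosen after seeing the data. Some results are not reported here.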

Additional observations from a re-analysis of the deposited data

Results flagged for a closer look

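Rows of ribosomal protein pseudogenes, the 322 rows with a ps suffix that were left out of the members, carried UMIs above what a count of 0 allows. They made up 0.222% of T cell UMIs in Control (39178 UMIs) and 0.483% in SAP (85689 UMIs). In cells with a Folr1 UMI their share was 4.74% and 4.99%, and in the other T cells 0.0883% and 0.0903%. Neither the source of these UMIs nor the identity of the Folr1 cells was tested.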

How the results depend on the processing

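The lower share in SAP kept its direction under every alternative run, with log2 ratios of -0.07 to -0.10 around -0.08. It was -0.09 without doublet removal, with thinning or without cells of 10 or more B and plasma cell UMIs, -0.08 with stricter cell filters or at 2000 to 4000 UMIs, -0.10 when scaled to other UMIs or as a mean of cell shares, and -0.07 without Folr1 cells. Scaling to other UMIs gave -0.45, -0.42 and 0.18 for the Cd8a, Trdc and Cd4 gates. The Cd8a gate was at -0.38 with gates of 2 or more UMIs, -0.40 as a mean of cells and -0.29 at 2000 to 4000 UMIs, where 34 members in place of 58 were lower.

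Members higher in SAP numbered 0 with thinning, 3 at 100 CPM, and 1 without Folr1 cells or at 2000 to 4000 UMIs. Those lower numbered 9 when scaled to other UMIs, 21 with TMM, 15 with median-of-ratios factors, and 2 without Folr1 cells or at 2000 to 4000 UMIs, and the members' median was -0.07, -0.16 and -0.14 under the 3 scalings. Members higher in the Cd8a gate numbered 0 with thinning, gates of 2 UMIs, without Folr1 cells and at 2000 to 4000 UMIs. In the Trdc gate they numbered 3 without doublet removal and 0 with thinning, gates of 2 UMIs, 100 CPM or no Folr1 cells. In the Cd4 gate thinning left 1 higher and 1 lower, and gates of 2 UMIs 3 higher. Shares of all genes were counted only as first reported and, between the libraries, without Folr1 cells. The other counts therefore have no background here.

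Rpl22l1 was at 40.0% in SAP with thinning, 40.2% without Folr1 cells and 42.8% in Control at 2000 to 4000 UMIs, and its Cd4 gate difference was -2.72 points on average with thinning. Rpl36al was at 23.2% and 22.2% with thinning, 23.1% and 22.0% without Folr1 cells, and 22.7% and 22.6% at 2000 to 4000 UMIs. Rpl39l in Control and SAP was at 2.91% (Control) without doublet removal, 0.366% and 0.433% with thinning, 3.98% and 9.08% with no T cell UMI required, 0.260% and 0.237% without Folr1 cells, and 0.309% and 0.262% at 2000 to 4000 UMIs.

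SAP over Control reversed without Folr1 cells for Rpl39l (log2 -0.33) and Rps3a3 (-0.18), at 2000 to 4000 UMIs for Rpl39l (-0.44), Rps3a3 (-0.29), Rpl6l (-0.00) and Rpl32l (-0.38), and with thinning for Rps3a3 (-0.17). The cause of these changes was not tested. No paired analysis was possible because each group has 1 library. Depth limited the small Cd4 gate, where thinning moved the counts and the Rpl22l1 difference, as well as rare members. The spread between libraries of a group is unknown.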
